A study of Mus musculus with 2 samples.

Results

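The Mir130/Mir301 family of the mouse comprises 4 microRNA genes, Mir130a, Mir130b, Mir301 (also called Mir301a) and Mir301b, of the 1973 microRNA genes in each count table. They were selected by gene name, as genes at 3 loci whose microRNAs share a seed, and with the levels in these libraries already known, so the levels below are a description and carry no test. RNA came from the forebrain of mouse embryos of strain B6NCrl at 13.5 days, healthy tissue with males and females pooled. The 2 libraries are biological replicates 1 and 2 of 1 group, with no treated or mutant group, and were restricted to RNA under 30 nucleotides in size. The labels give both the same donor identifier and do not say how many embryos each pool held, so the spread between the libraries may be partly technical.

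MicroRNAs guide Argonaute proteins to messenger RNAs, which are then repressed, and the seed, the stretch of bases 2 to 8 of the mature strand, does most of the target recognition. MicroRNAs with a common seed can therefore act on overlapping sets of messages. In mammals the miR-130/301 family is known as a regulator of the lipid and vascular transcription factor PPARγ, and miR-130a in human endothelial cells is known to repress anti-angiogenic homeobox genes. In a whole piece of tissue the counts pool all cell types, and fewer cells of a type cannot be told apart from less RNA per cell.

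The sequences show what the family shares and where its genes part. The mature 3p strands listed by RefSeq (GRCm38.p6) for 3 of the 4 genes are printed first, 5′ to 3′, with the seed in capitals.
miR-130a-3p: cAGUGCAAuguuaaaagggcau
miR-130b-3p: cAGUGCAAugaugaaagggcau
miR-301a-3p: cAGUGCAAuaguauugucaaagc
The hairpins of all 4 genes follow, again from RefSeq, because the 7 seed letters occur exactly once in each, on the 3′ arm. Capitals mark those letters.
Mir130a: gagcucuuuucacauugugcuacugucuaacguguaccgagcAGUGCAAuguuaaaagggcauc
Mir130b: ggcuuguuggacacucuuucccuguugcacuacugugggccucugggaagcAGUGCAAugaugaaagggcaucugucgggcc
Mir301: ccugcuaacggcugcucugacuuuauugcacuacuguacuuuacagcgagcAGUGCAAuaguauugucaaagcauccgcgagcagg
Mir301b: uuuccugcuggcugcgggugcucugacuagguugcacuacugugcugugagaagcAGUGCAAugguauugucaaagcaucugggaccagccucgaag

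Beyond the seed the family fell into 2 kinds of 3′ arm. Over the 22 bases that start 1 base before the seed, Mir130a and Mir130b were identical at 20 positions and differed by U11A and A13G, with the Mir130a base first and positions counted from 1 at the 5′ end. Mir301 and Mir301b were identical at 21 positions and differed by A10G, with the Mir301 base first. Between the kinds 11 to 13 positions were identical. The 5p strands, all 22 bases long, divided differently. Those of Mir301 and Mir301b shared a seed of their own and 19 positions, whereas the 5p strand of Mir130b shared 16 positions with each of them and 15 with Mir130a. They are shown because the counts may include either strand, with the 5p seeds in capitals.
miR-130a-5p: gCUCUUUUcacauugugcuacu
miR-130b-5p: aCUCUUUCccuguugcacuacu
miR-301a-5p: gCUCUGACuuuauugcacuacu
miR-301b-5p: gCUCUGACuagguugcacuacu

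These differences bear on the counting, since reads that map to several places were not assigned to genes. The longest exact stretch shared by any pair of the 4 hairpins was 16 bases, between Mir301 and Mir301b. None of the 4 genes shared a stretch of 20 bases or more with another annotated microRNA gene. Shorter reads, and matches elsewhere in the genome, were not examined. The counts are per gene and do not separate the 5p from the 3p strand.

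The genes occupy 3 places in the genome (GRCm38, positions from GENCODE M21). Mir130a (ENSMUSG00000065484.1) lies between genes on the minus strand of chromosome 2, at 84741115 to 84741178, 990 bases from Gm19426 and 2459 bases from Ypel4. Mir301 (ENSMUSG00000065589.1) lies on the plus strand of chromosome 11, at 87113004 to 87113089, within an intron of Ska2, which encodes a subunit of the spindle and kinetochore associated complex of dividing cells. It begins 3770 bases from the start of the Ska2 transcript used here, in intron 1, which is 6799 bases long. Mir301b (ENSMUSG00000076288.1, 17124400 to 17124496) and Mir130b (ENSMUSG00000065572.1, 17124061 to 17124142) lie together on the minus strand of chromosome 16, with 257 bases between them and Mir301b upstream. Both are in intron 1 of 2610318N02Rik, on the strand of that gene. The hosts' own messenger RNA is not measured by these libraries.

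**Figure D1:**
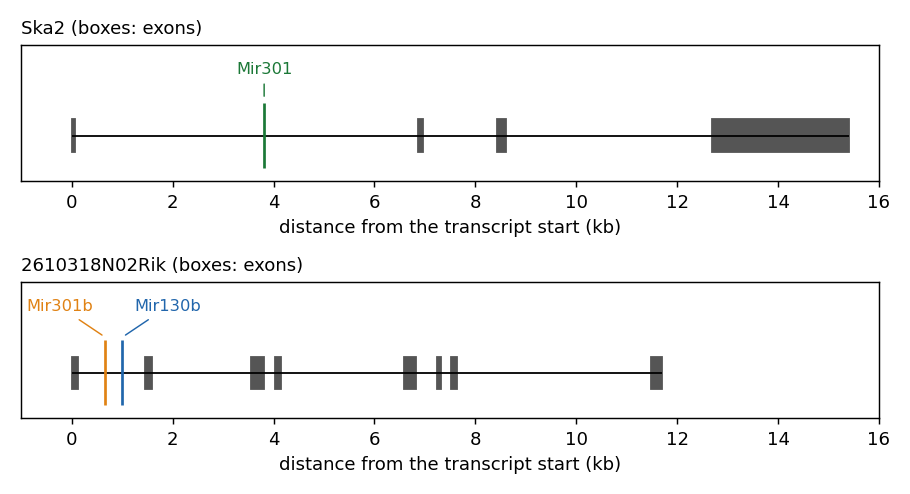
Positions of Mir301 in Ska2 and of Mir301b and Mir130b in 2610318N02Rik, drawn to scale in kilobases from the start of 1 transcript of each host (boxes are exons, coloured lines are microRNA genes). All 3 lie in intron 1, Mir301 at 3770 bases and Mir301b and Mir130b at 610 and 964 bases from the start.

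Replicate 1 held 4117752 reads counted on microRNA genes and replicate 2 held 3908953, out of 10631040 and 10452225 reads in the tables. Multi-mapped reads made up 40.6% and 43.9% of all reads. Levels are in CPM, counts relative to 1000000 gene counts of a library, and 1 count equalled 0.243 and 0.256 CPM. The listed mature strands of the family are 22 or 23 bases long, so counts were not divided by length, and unequal capture of different sequences was not measured. Levels of marker genes were set beside the tissue label. The marker lists were chosen with earlier results of these data known, so they are no independent check of the label. They are also partial. Mir615, Mir208a and Mir499, for example, were detected at means of 8.70, 3.87 and 3.10 CPM and are on no list. All 6 listed neural markers were detected and summed to 24483 and 21068 CPM in replicates 1 and 2, led by Mir92b and Mir137. Of these, Mir124a-2 and Mir9-2, which have near-identical copies, had at most 20 counts in a library. Among copies left out of the list, Mir128-2 was detected, at 679 and 472 CPM. Mir124a-1 (1.94 and 1.53 CPM) and Mir124a-3 (0.729 and 0.767 CPM) were not. Detection of all 6 therefore depends on which copies were listed. Of 5 markers of hindbrain, spinal cord and trunk, 3 were detected, with a sum of 436 and 285 CPM. The liver marker Mir122 had 59.3 and 52.7 CPM, and 3 striated muscle genes summed to 48.3 and 37.1 CPM, with Mir133b at 0 in both libraries.

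All 4 members were detected, a term used here for genes that had 10 counts or more in both libraries. It summed to 186774 counts in replicate 1 and 187525 in replicate 2. The family thus took up 4.54% of all counts on genes in replicate 1, with a 95% Wilson interval of 4.52 to 4.56, and 4.80% in replicate 2, with an interval of 4.78 to 4.82. The mean was 4.67% ± 0.185 (SD, n = 2 libraries). Such intervals reflect the counting of reads alone. PCR copies of a molecule are counted as separate reads, so the intervals may be too narrow even for that.

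Mir130a made up most of the family. It had 136040 counts in replicate 1 and 136007 in replicate 2, which are 33037 and 34794 CPM, or 33916 ± 1242 CPM (SD, n = 2). The gene ranked 5 in replicate 1 and 6 in replicate 2 among all genes, as counted without multi-mapped reads. It held 72.8% of the family counts in replicate 1 and 72.5% in replicate 2.

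Mir130b stood next. Its counts were 35440 in replicate 1 and 37946 in replicate 2, which are 8607 and 9707 CPM, or 9157 ± 778 CPM. It held 19.0% of the family in replicate 1 and 20.2% in replicate 2. The level of Mir130a was 3.84 times that of Mir130b in replicate 1 and 3.58 times in replicate 2, although their 3′ arms differ at only 2 of 22 positions.

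Mir301, the Ska2 gene, had 14334 counts in replicate 1 and 12697 in replicate 2. These are 3481 and 3248 CPM, or 3365 ± 165 CPM, and 7.67% and 6.77% of the family. Mir130b stood 2.47 times above it in replicate 1 and 2.99 times in replicate 2.

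Mir301b was the lowest member. It had 960 counts in replicate 1 and 875 in replicate 2, or 233 and 224 CPM, a mean of 228 ± 6.57 CPM. Its part of the family was 0.514% in replicate 1 and 0.467% in replicate 2. Mir301, whose 3′ arm differs from that of Mir301b at 1 position, stood 14.9 and 14.5 times higher, and Mir130a 142 and 155 times higher. The order Mir130a, Mir130b, Mir301, Mir301b was the same in both libraries, and no pair of members overlapped in range, so every step in the order exceeded the replicate spread.

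**Figure D2:**
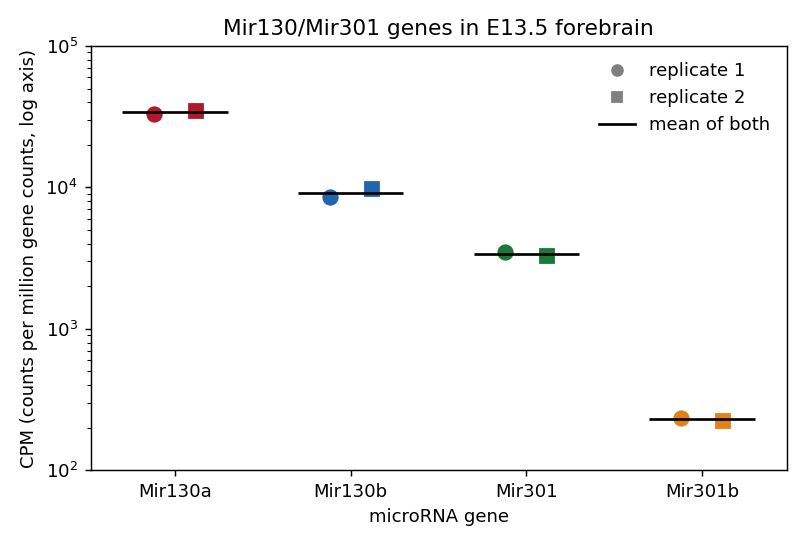
Level of each Mir130/Mir301 gene in CPM on a log axis, with a circle for replicate 1, a square for replicate 2 and a line at their mean. The steps between genes, from 33916 CPM for Mir130a to 228 CPM for Mir301b, are far larger than the gap between the libraries.

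By locus, the Mir130a gene held 72.7% ± 0.219 of the family counts, the Mir301b-Mir130b pair 20.1% ± 0.858 and Mir301 7.22% ± 0.639. The coefficient of variation of CPM over the 2 libraries was 3.66% for Mir130a and 8.50% for Mir130b. It was 4.89% for Mir301 and 2.88% for Mir301b, against a median of 9.50% over the 377 detected genes. The median level of those genes was 137 CPM, below every member, and counting error weighs more at low counts. That median is therefore not matched to the members in count. The spread depends on the scaling. With TMM-scaled library sizes the levels were 33973 ± 3050 CPM for Mir130a, 9184 ± 1267 for Mir130b, 3363 ± 14.6 for Mir301 and 228 ± 5.60 for Mir301b (SD, n = 2), so the SD was larger than without TMM for Mir130a and Mir130b and smaller for Mir301 and Mir301b.

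The genes most like each member in level were taken as those just above and below it in mean CPM, with likeness given as the difference in log2 mean CPM over the 2 libraries. Mir130a lay below Mir17, a leading gene of the Mir17 cluster, at 0.53, and their ranges did not overlap. It lay above Mirlet7i at 0.09, with overlapping ranges. Mir130b stood between Mir30a and Mirlet7d (0.09 and 0.10), Mir301 between Mir484 and Mir431 (0.02 and 0.04), and Mir301b between Mirlet7c-2 and Mir455 (0.02 and 0.05). All 6 of these ranges overlapped that of the member beside them, so those neighbours do not differ beyond their spread. The levels leave out multi-mapped reads, so genes with near-identical copies may stand too low and the neighbours hold for assigned reads only. Among genes that share no stretch of 20 bases with another annotated microRNA gene, Mir301 ranked 49 instead of 57 and Mir301b 123 instead of 163.

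**Figure D3:**
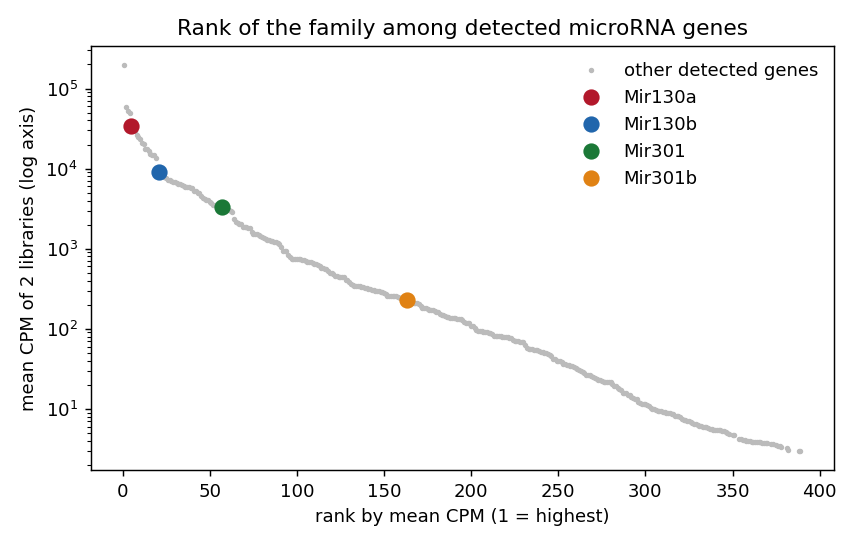
Mean CPM of the 377 detected microRNA genes on a log axis against their rank over all genes (rank 1 is the highest). The 4 coloured points are the family, at ranks 5, 21, 57 and 163.

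Other mouse genes carry the same seed. RefSeq lists 4 of them outside the family, with the seed in capitals.
miR-130c: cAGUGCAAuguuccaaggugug
miR-721: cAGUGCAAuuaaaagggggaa
miR-6341: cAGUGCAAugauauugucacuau
miR-6389: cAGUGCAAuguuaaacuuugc
Mir130c, Mir6341 and Mir6389 are in the tables and had 0 counts in both libraries. The limit set by a count of 0, taken as 3 counts, corresponds to 0.729 CPM for replicate 1 and 0.767 CPM for replicate 2. It covers assigned reads only, since multi-mapped reads were not assigned to genes. Mir721 was not analysed here.

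Genes were also grouped by the seed of either mature strand and ordered by their share of gene counts. A gene was counted under both of its seeds, and a group whose genes all belonged to a higher group was left out, which gave 703 groups. The family's seed ranked 5, at 4.64% on average without Mir301b, whose 3p strand is not in the list. The groups above it were led by Mir99a, by the let-7 genes, by Mir17 and by Mir335. With the nested groups kept, it ranked 8 of 916. Both ranks rest on assigned reads only, so seeds carried by genes with near-identical copies may stand too low. No member shares a stretch of 20 bases or more with another annotated microRNA gene, so the order may favour the family's seed. Its place with multi-mapped reads included was not tested.

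Families whose seeds contain 6 of the 7 letters in a shifted register were far lower. The Mir148/Mir152 family, known in mammals to target the DNA methyltransferase gene Dnmt1, and the Mir19 genes of the Mir17 cluster and its X-linked paralog are represented below by 1 strand each, with the shared letters in capitals.
miR-148a-3p: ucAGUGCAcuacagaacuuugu
miR-19a-3p: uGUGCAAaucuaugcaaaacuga
The 4 genes of the Mir130/Mir301 family together stood at 45358 and 47973 CPM, against 381 and 418 CPM for the 3 genes Mir148a, Mir148b and Mir152. The family sum was 119 times the Mir148/Mir152 sum in replicate 1 and 115 times in replicate 2. Mir301b alone, at 228 ± 6.57 CPM, was close to Mir148b at 217 ± 19.4 CPM, and above Mir148a at 162 ± 2.27 CPM and Mir152 at 20.6 ± 4.46 CPM. The ranges of Mir301b and Mir148b overlapped. Mir19a, Mir19b-1 and Mir19b-2 summed to 117 and 128 CPM. Mir19b-1 and Mir19b-2 share a stretch of at least 20 bases with each other, so reads of theirs may be among the multi-mapped ones and the Mir19 sum may be too low. With 2 libraries no permutation test could reach a threshold of 0.05, and none was made.

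Mir130b and Mir301b are neighbours in 1 intron, yet their counts differed widely. The count of Mir130b was 36.9 times that of Mir301b in replicate 1 and 43.4 times in replicate 2, which are log2 ratios of 5.21 and 5.44. To place this, the higher gene was set over the lower in all 64 pairs of microRNA genes next to each other on 1 strand, with at most 1000 bases between them and both detected. The median log2 ratio of these pairs was 3.14, with a range of 0.02 to 9.82. The pair ranked 16 of 64, so 15 pairs differed more. Some of these pairs include genes with copies, whose counts are uncertain. Pairs can also share a gene, as Mir20a over Mir19b-1 and Mir20a over Mir19a do, so they are not independent of each other. In 31 of the 64 pairs the higher gene was the downstream one, as Mir130b is here. The log2 ratio within the pair differed by 0.23 between the libraries, against a median of 0.16 over the pairs, and 42 pairs differed less.

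**Figure D4:**
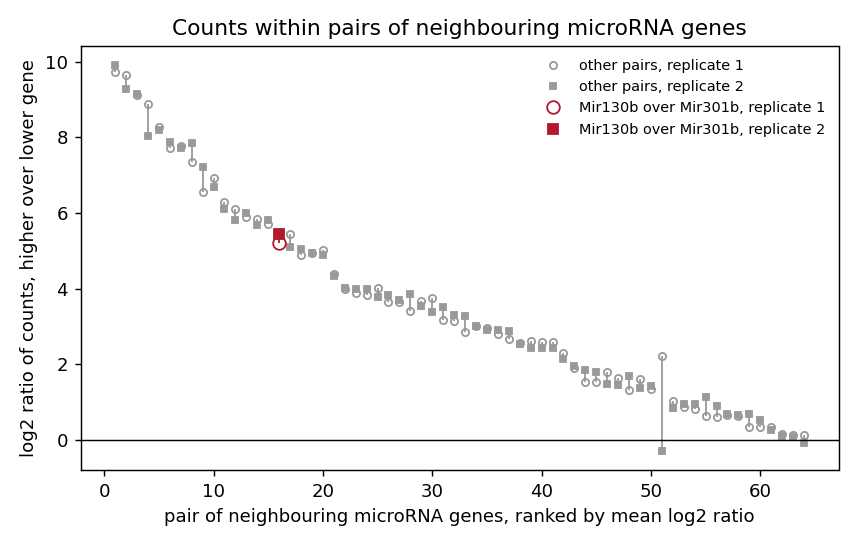
log2 ratio of counts, higher over lower gene, in each of 64 pairs of neighbouring microRNA genes, ordered by mean ratio, with a circle for replicate 1 and a square for replicate 2. The pair of Mir130b over Mir301b, in red at rank 16, lies above the median pair (3.14) in both libraries.

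The libraries were then set against each other, gene by gene, as log2 of replicate 1 over replicate 2 after TMM scaling, with a two-sided exact binomial test and Benjamini-Hochberg adjustment over the 475 genes with at least 10 counts in all. The test compares these libraries and not conditions, and it covers counting error only. Of the 4 members, 2 passed an adjusted p of 0.05 as lower in replicate 1, where 18.1% of all tested genes did. As higher in replicate 1, 0 members passed, where 20.8% of all tested genes did. Higher counts let smaller ratios pass, and the median level of the detected genes was only 137 CPM. These shares are therefore not a background matched in count to Mir130a and Mir130b. Of the 185 calls made with TMM, 53.5% were higher in replicate 1, against 72.3% of the 195 calls with library totals and 63.8% of the 185 calls with DESeq2 size factors.

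Mir130a was lower in replicate 1 by a factor of 1.14 (log2 ratio -0.18, exact 95% interval -0.19 to -0.17, exact binomial adjusted p = 2.98e-239). Mir130b was lower by a factor of 1.22 (log2 ratio -0.28, interval -0.30 to -0.26, exact binomial adjusted p = 2.33e-153). Of the 377 detected genes, 45.1% had a smaller absolute log2 ratio than Mir130a and 61.3% a smaller one than Mir130b. The median absolute log2 ratio was 0.12 over the 4 members and 0.21 over the detected genes.

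Mir301 had a log2 ratio of -0.01 (interval -0.04 to 0.03, exact binomial adjusted p = 0.766) and Mir301b one of -0.05 (interval -0.18 to 0.08, exact binomial adjusted p = 0.623). With library totals in place of TMM, which moved all ratios by 0.11, the ratio of Mir301 was 0.10 and passed the test, and that of Mir301b was 0.06 and did not. With DESeq2 size factors Mir301 stood at 0.04, without passing. The direction of Mir301 and Mir301b therefore depends on the scaling, while Mir130a and Mir130b passed as lower in replicate 1 with each scaling, at -0.07 and -0.17 with library totals. Among the seed relatives, Mir148b (-0.29, exact binomial adjusted p = 1.10e-04) and Mir152 (-0.55, exact binomial adjusted p = 0.0403) passed as lower in replicate 1, and Mir148a and the 3 Mir19 genes, at -0.14 to -0.29, did not pass. Other scalings were not run for these relatives.

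The levels of cell type markers in the same libraries are given here without a test. The endothelial marker Mir126a stood at 16042 CPM in replicate 1 and 18828 CPM in replicate 2, a log2 ratio of -0.34. The mural markers Mir143 and Mir145a, both detected, summed to 3130 and 4019 CPM (-0.47), nearly all of it from Mir143. All 4 blood markers were detected and summed to 254 and 198 CPM (0.25), but only Mir451a had a positive log2 ratio, at 1.74. Mir144, its neighbour in the genome at 99 bases, stood at -0.77, and Mir223 and Mir150 at -0.30 and -0.45. The log2 ratio was 0.11 for the neural sum. Mir137 and Mir128-1 stood at 0.30 and 0.37, and Mir92b, Mir9-2, Mir9-3 and Mir124a-2 at -0.01, -0.03, -0.05 and -0.11. The sum of hindbrain, spinal cord and trunk markers, of which Mir196a-1 was at 0 in replicate 2, had 0.50, and Mir122 had 0.06. For the muscle sum it was 0.27, with Mir206 at 1.54 from 43 and 13 counts and Mir208b at 0.06. Whether the levels of these markers play a part in the difference of Mir130a and Mir130b was not tested.

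**Figure D5:**
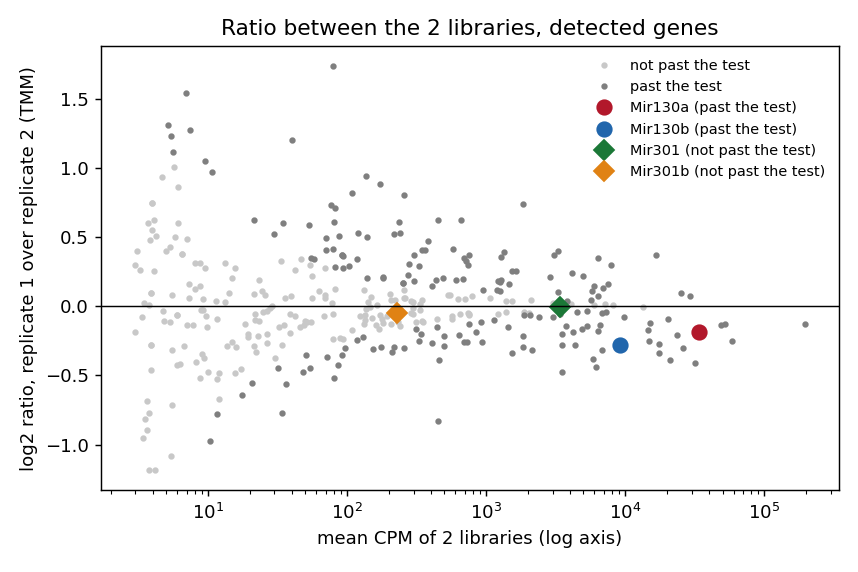
log2 ratio of replicate 1 over replicate 2 after TMM scaling, against mean CPM on a log axis, for the 377 detected microRNA genes (dark grey for genes past the exact binomial test, light grey for the others, large symbols for the family). Mir130a and Mir130b lie below 0, at -0.18 and -0.28, and Mir301 and Mir301b near it, on a side that changes with the scaling.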

How the data were processed

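Small RNA from embryonic mouse forebrain had been sequenced in 2 libraries of 1 group, grouped by the labels' descriptions. The authors deposited a table for each library with the count of reads on each microRNA gene, on build mm10 with GENCODE M4, per the read-me files deposited with them. Names of the aligner and counter were not given in the sources read here. The 3 unnamed columns were read as either strand, the strand of the gene and the opposite strand, since the first equals the sum of the others in every gene and the second holds nearly all reads. The second was used. The 4 rows that summarise reads outside the genes did not enter library sizes. Unmapped and unassigned reads were 16.7% and 3.99% of reads in replicate 1 and 15.0% and 3.71% in replicate 2, and ambiguous reads numbered 0.

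Symbols and positions came from GENCODE M21, on the same build, for 1894 of the 1973 identifiers, and sequences from the RefSeq table. CPM, ranks, shares and Wilson intervals were computed with Python 3.11.15 and scipy 1.17.1. TMM factors came from edgeR 4.0.16 and size factors from DESeq2 1.42.0, in R 4.3.3. The exact binomial test ran across the 475 genes whose counts summed to 10 or more. It was also run on data simulated with counting error alone, which cannot show how it performs where libraries vary more. With 1 group no test between conditions was possible. Named genes were the members, genes of the same seed, fixed lists of seed relatives and markers, and the nearest genes in mean CPM. Genes that lead other seed groups, and neighbouring or host genes, were named after their values or positions were seen. The members and lists were chosen with earlier results of these data known. Alternatives were library totals, DESeq2 size factors, other count minimums, reads on either strand, other denominators and each replicate left out.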

Additional observations from a re-analysis of the deposited data

Results flagged for a closer look

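Outside the counts used, on the strand opposite to the gene, Mir130a had 8 counts in replicate 2, above the limit of 3 that a count of 0 allows, and 1 count in replicate 1. These are 0.00588% (95% Wilson interval 0.00298 to 0.0116) and 0.000735% of its reads on either strand. Mir301b had 1 such count in replicate 2 and 0 in replicate 1, and Mir130b and Mir301 had 0 in both libraries. The source of these reads was not tested.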

How the results depend on the processing

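The share of gene counts held by the family, 4.67%, was 1.78% relative to all reads of the tables and 5.80% of gene counts without Mir99a, as follows from the change of denominator, and all member levels moved with it. With each replicate left out it was 4.54% or 4.80%, the value of the library that remained. For 2 libraries such a change is always smaller than the SD, so it is no check of stability. With reads on either strand the share was 4.57%, within the replicate SD. Members kept the order of their levels, and the number detected stayed at 4, under every alternative run. With library totals the log2 ratio of Mir301 turned to 0.10 and passed the test (exact binomial adjusted p = 6.61e-08, against 0.0797 to 0.948 under its other alternatives). The number of genes past the test, 185 of 475, was 171 to 195 under all alternatives, but the number tested changed with the count minimum. It was 171 of 293 with at least 50 counts in each library. With at least 1 count in the libraries together it was 174 of 720, so the share past the test was not stable. Among genes without a copy Mir130a ranked 5, Mir130b 20, Mir301 49 and Mir301b 123. No paired analysis was possible because there is 1 group. With 2 libraries the SD is itself imprecise, and a capture bias common to both would not show in it.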
